A study of Mus musculus with 6 samples.

Results

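Complex I, the NADH:ubiquinone oxidoreductase of the mitochondrial inner membrane, is built from subunits encoded in the nucleus and subunits encoded in mitochondrial DNA. The genes described here are 35 nuclear-encoded subunit genes, taken by symbol from a list of subunit names. All 35 were in the deposited table of 26191 genes. Complex I passes electrons from NADH to ubiquinone through a peripheral arm that reaches into the matrix, and pumps protons through an arm embedded in the membrane. The catalytic core subunits carry the flavin, the iron-sulfur clusters and the proton channels, and the accessory subunits surround them and are needed to assemble or hold the complex. In heart muscle, which is rich in mitochondria, the complex feeds the respiratory chain that makes most of the ATP for contraction.

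The samples were mouse embryonic hearts labelled embryonic day 12. The 3 control (Ctrl) samples were Mrps5 fl/fl and the 3 Mrps5 cKO samples were Mrps5 fl/fl; cTNT-Cre, so both groups carried the floxed alleles and only the cKO group carried Cre. Cre was driven by the cardiac troponin T promoter, which restricts deletion to cardiomyocytes, while the RNA came from whole hearts, several of them pooled in each replicate. Mrps5 encodes a protein of the small subunit of the mitochondrial ribosome, which translates the mitochondrially encoded subunits of complex I. The comparison asks which transcripts differ in the heart when this gene is deleted in cardiomyocytes. Values are FPKM (fragments per kilobase of transcript, scaled to the mapped fragments of each library), summed over the transcript rows of a gene, and fold changes are differences of log2(FPKM + 1), cKO minus Ctrl.

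The deleted gene itself did not separate the groups. Mrps5 was at 9.65, 11.4 and 10.4 FPKM in Ctrl replicates 1, 2 and 3, and at 5.28, 7.41 and 10.4 FPKM in cKO replicates 1, 2 and 3. The library labelled cKO replicate 3 was thus at the Ctrl level (log2 fold change -0.44, SE 0.19, limma adjusted p = 0.338). Erythroid marker genes held 12.0% to 13.3% of the summed FPKM in the Ctrl libraries, and 23.5%, 10.8% and 21.9% in cKO replicates 1, 2 and 3. All 10 cardiomyocyte markers (such as Tnnt2, Ttn and Myh7) had a lower mean in cKO (beside 55.0% of all genes tested), and 7 of them fell at an unadjusted p under 0.05 (beside 9.43%), with a list median of -0.41 on the log2 scale. In whole hearts, fewer cells of a type and less RNA per cell cannot be told apart.

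Short sequences around the start sites of these genes show what several of them share. RefSeq promoter windows (GRCm38.p6), from 250 bases upstream to 50 bases downstream of a start site, were found for 32 of the 35 genes, and not for Ndufa2, Ndufb9 and Ndufs1. The letters AAGATGGC, those of a YY1 site, were found on either strand in 7 of the 32 genes (21.9%) and in 3.19% of 27025 genes with such a window. All 7 matches lay on the transcribed strand, with their first base 23 to 39 bases into the transcript, and in all 7 the ATG inside the letters was the annotated start codon of GENCODE M21. A match that starts 20 to 40 bases into the transcript was found in 0.599% of all genes; that range was chosen after the positions were seen. The windows are printed 5′ to 3′ with the matched letters in capitals, because they show the same letters at the same place in subunits of both arms. Of these 7 genes, Ndufa3, Ndufb8 and Ndufc1 fell by the test given below, by which 9.43% of all genes and 20% of the 35 fell, and the other 4 did not pass it.

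Ndufa3 (chr7:3617387-3617410, + strand): ccaagaacAAGATGGCcgggagta
Ndufb8 (chr19:44555393-44555412, - strand): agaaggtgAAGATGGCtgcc
Ndufc1 (chr3:51408918-51408941, - strand): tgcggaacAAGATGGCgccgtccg
Ndufs4 (chr13:114388045-114388067, - strand): cctacaggAAGATGGCggcggtc
Ndufs6 (chr13:73328434-73328457, - strand): tcaccggcAAGATGGCggcggtgc
Ndufs7 (chr10:80249465-80249488, + strand): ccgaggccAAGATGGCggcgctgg
Ndufa9 (chr6:126849100-126849123, - strand): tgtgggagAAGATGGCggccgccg

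The letters CGCNTGCG (CGCANGCG on the other strand), those of a site for nuclear respiratory factor NRF1, were found in 10 of the 32 genes (31.2%) and in 9.22% of all genes. The windows are shown for the gene with the lowest fold change (Ndufa5), the 2 with the highest (Ndufa12 and Ndufa6) and the lowest-expressed gene present in all libraries (Ndufa11), again with the matched letters in capitals.

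Ndufa5 (chr6:24527700-24527723, - strand): gtgagctgCGCAGGCGcaaatcta
Ndufa12 (chr10:94198908-94198931, + strand): cagctctgCGCCTGCGtagaacga
Ndufa6 (chr15:82354252-82354275, - strand): tggcaccgCGCGTGCGcacgctga
Ndufa11 (chr17:56717695-56717718, + strand): gcactgcgCGCATGCGcgcacgcc

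The remaining searches gave shares on either side of the background. CCGGAAG, the letters of an ETS-family site searched like the others on both strands, was in 4 genes (12.5%, against 9.93% of all genes). CCAAT was in 10 genes (31.2%, against 41.1%), among them Ndufb3, whose window at chr1:58586336-58586356 (+ strand) reads ccgctctcATTGGctgcgcta, with the match on the other strand. TGATGNAA (TTNCATCA), the letters of an ATF4 element, was in 0 of 32 genes, against 4.51% of all genes. A match of letters is a description of the sequence and not a measurement of binding.

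Every member passed the filter of 1 FPKM in at least 3 of 6 libraries, under which 13260 genes were tested. Leaving aside Ndufs3, which was listed at 0 in 2 libraries, 25 genes had a mean between 50 and 100 FPKM, 4 above 100 and 5 below 50. The median of these 34 means was 79.0 FPKM, against 9.25 FPKM over all genes tested. Ndufb8, an accessory subunit of the distal membrane arm, had the highest mean, and Ndufa11, of the proximal membrane arm, the lowest among the 34 genes detected in every library, with a ratio of 7.84 between them. In the order of the 34 means, 32 of 33 neighbouring pairs had overlapping ranges over the 6 libraries, and the exception was the step from Ndufb9, the second highest, down to Ndufc2. The core subunits did not share a level, with means from 52.1 to 92.9 FPKM over the 5 detected in every library. Processed copies of Ndufa11, Ndufab1, Ndufb4 and Ndufs6 are annotated in GENCODE M21, and how reads shared with them were assigned is not given in the sources used here.

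**Figure D1:**
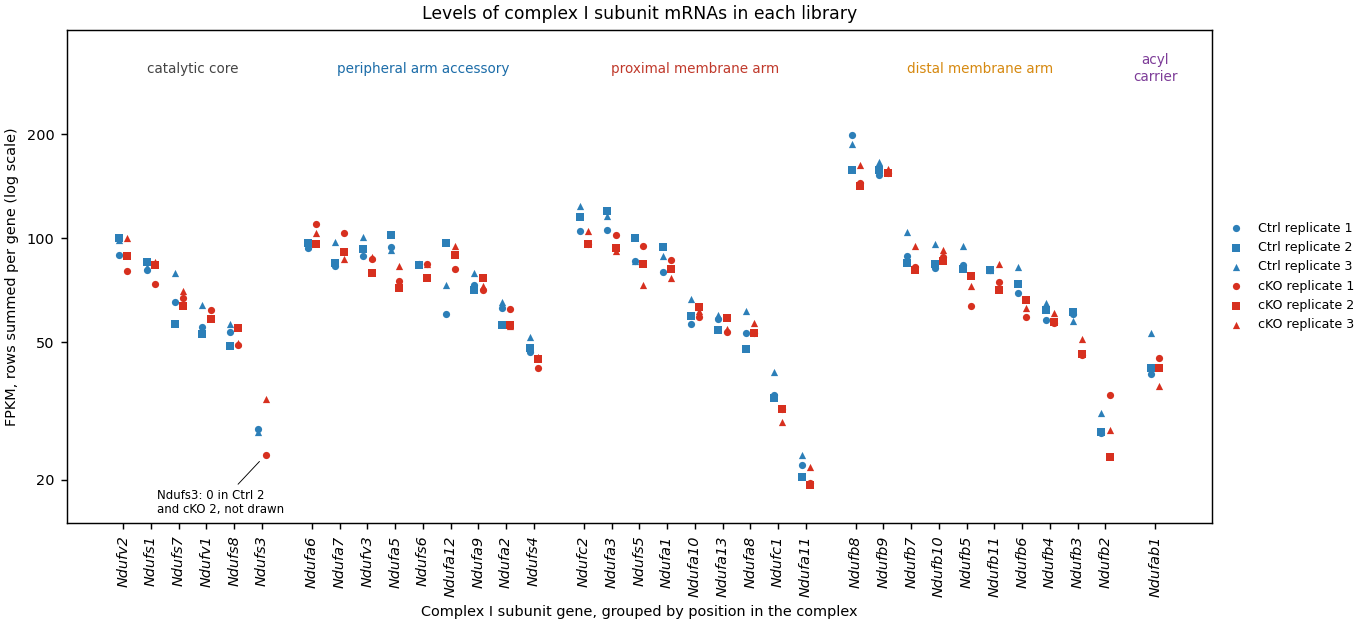
FPKM of each complex I subunit gene in each library (log axis), with genes grouped by their place in the complex and ordered by mean within a group; blue symbols are Ctrl and red symbols are cKO, and each symbol shape is a replicate number. Most genes lie between 50 and 100 FPKM, Ndufb8 and Ndufb9 lie highest, and Ndufs3 is drawn only in the 4 libraries where it was not listed at 0.

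The difference between the groups was small and mostly in the same direction. Leaving Ndufs3 aside, 26 of the other 34 genes had a lower mean in cKO hearts and 8 a higher mean, with log2 fold changes from -0.33 to 0.23. The median fold change was -0.08, against -0.02 over all genes tested, of which 55.0% had a lower mean. With limma, 7 genes fell at an unadjusted p under 0.05 (20% of the list), and over all genes tested 9.43% fell by the same rule. No complex I gene rose, against 5.57% of all genes. After adjustment over all genes, 0 of 35 passed 0.05, the smallest adjusted p being 0.161, and 0.0830% of all genes passed. Every cKO value lay below every Ctrl value for 8 genes (22.9%), against 13.0% of all genes, and none lay above in all, against 7.74%. With a covariate for the mean level of cardiomyocyte markers, chosen after the data were seen, 2 genes were called lower (5.71%, against 3.04% of all genes). The median was then 0.0039, against -0.03 over all genes. That fit extrapolates, because the marker levels of the groups did not overlap. Of those 2, Ndufa3 was among the 7 (-0.45 with the covariate) and Ndufs5 was not. Without Ctrl replicate 3, 2 genes were called lower (5.71%, against 8.04% of all genes). Without the library labelled cKO replicate 3, 6 were (17.1%, against 8.82%), 5 of them among the 7 and the sixth Ndufc2.

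**Figure D2:**
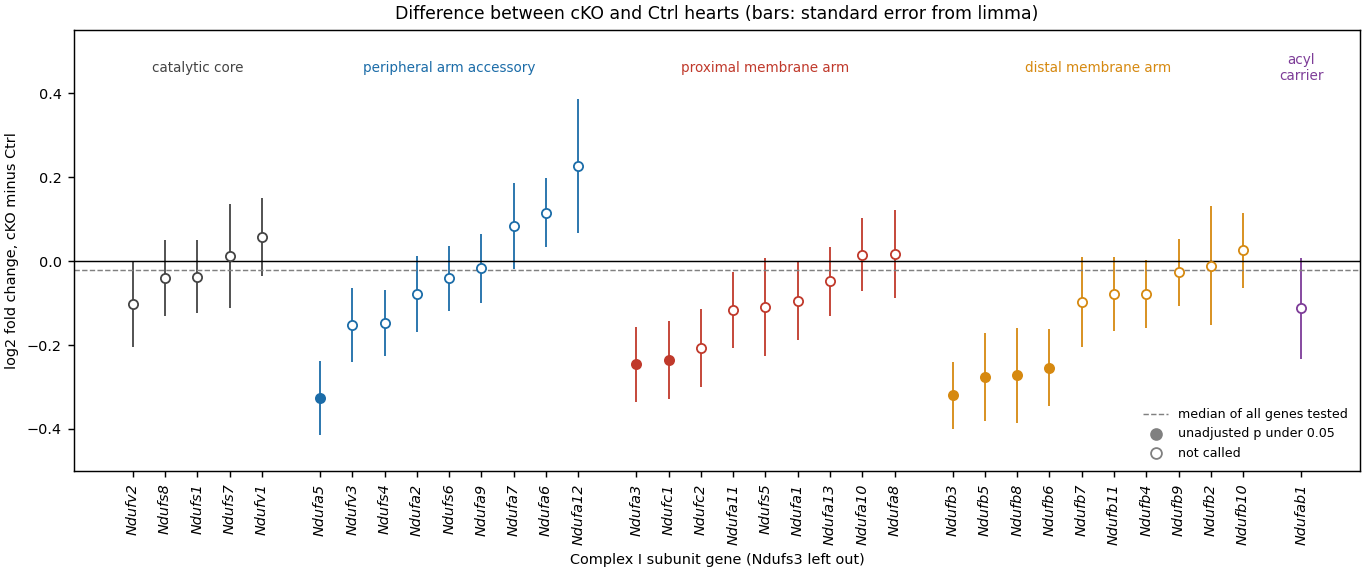
Log2 fold change (cKO minus Ctrl) of 34 complex I subunit genes with standard errors from limma, grouped by place in the complex; filled circles passed an unadjusted p of 0.05 and open circles did not. The 7 filled circles lie at or below -0.23 and 6 of them are in the membrane arm, while Ndufs3 is left out because it was listed at 0 in 2 libraries.

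Among the 6 catalytic core genes of the list, none passed the test and none separated the groups, beside 9.43% of all genes called lower and 13.0% without overlap, so that a count of 0 among so few genes is near the background. Ndufv1, which binds the flavin and NADH, was at 55.4, 52.8 and 64.2 FPKM in Ctrl and 61.8, 58.4 and 58.8 FPKM in cKO (log2 fold change 0.06, SE 0.09). Ndufv2, an iron-sulfur protein beside it, was at 89.6, 100.1 and 98.6 FPKM in Ctrl and 80.3, 88.6 and 100.3 FPKM in cKO (-0.10, SE 0.10). All cKO values of Ndufv1 lay within the Ctrl range, and cKO replicate 3 held the highest Ndufv2 value. Ndufs1, the largest iron-sulfur subunit of the arm, was at 80.9, 85.2 and 82.7 FPKM in Ctrl and 73.6, 83.7 and 85.6 FPKM in cKO (-0.04, SE 0.09). Ndufs8, which holds a pair of iron-sulfur clusters on the way to the quinone, was at 53.6, 48.7 and 56.4 FPKM in Ctrl and 49.0, 55.2 and 49.9 FPKM in cKO (-0.04, SE 0.09). Ndufs7, which holds the last cluster before ubiquinone, was at 65.3, 56.4 and 79.1 FPKM in Ctrl and 67.1, 63.6 and 70.2 FPKM in cKO (0.01, SE 0.12). In the last 3 genes too, the cKO values lay among the Ctrl values or on both sides of them.

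Ndufs3, a core subunit at the base of the peripheral arm, could not be compared. It was listed at 0 in Ctrl replicate 2 and in cKO replicate 2, and at 28 and 27.6 FPKM in the other Ctrl libraries and 23.6 and 34.3 FPKM in the other cKO libraries. It has 1 row in the table, and it was the only gene at 0 in just these 2 libraries with at least 5 FPKM in the other 4, so the zeros may be failed estimates and no mean is given.

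The accessory subunits of the peripheral arm held both the lowest and the highest fold change over the 6 libraries, though without Ctrl replicate 2 the lowest was Ndufb8 (-0.37), and without cKO replicate 2 it was Ndufb5 (-0.34). Of these 9 genes, Ndufa5 fell (11.1%, beside 9.43% of all genes) and the other 8 were not called, with a median of -0.04. Ndufa5, an accessory subunit of the part of the arm that binds quinone, was at 94.1, 102 and 92.7 FPKM in Ctrl and at 75.2, 71.9 and 83.0 FPKM in cKO. Every cKO library lay below every Ctrl library, with means of 96.3 ± 5.00 and 76.7 ± 5.67 (SD, n = 3 each). Its log2 fold change was -0.33 (SE 0.09, limma adjusted p = 0.172).

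For Ndufs4 and Ndufv3 the groups also did not overlap, but neither passed the test. Ndufs4, whose loss causes a mitochondrial encephalopathy in mice, was at 47.0, 48.1 and 51.8 FPKM in Ctrl and 42.2, 44.7 and 45.4 FPKM in cKO (-0.15, limma adjusted p = 0.423). Ndufv3, an accessory subunit near the NADH site, was at 88.9, 93.2 and 101 FPKM in Ctrl and 87.3, 79.1 and 88.0 FPKM in cKO (-0.15, limma adjusted p = 0.455). The gaps were narrow, since in each gene the highest cKO library lay closer to the lowest Ctrl library than 1 SD of either group.

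At the other end, Ndufa12 and Ndufa6 had the highest fold changes, and neither passed the test. Ndufa12, which sits beside the NADH-oxidising module, was at 60.6, 96.9 and 73.5 FPKM in Ctrl and 81.7, 89.7 and 95.0 FPKM in cKO (0.23, SE 0.16, limma adjusted p = 0.545). Its Ctrl libraries spanned the whole cKO range, and Ctrl replicate 1 was the low one. Its fold change was 0.07 without Ctrl replicate 1, then below the 0.10 of Ndufa6, and 0.40 without Ctrl replicate 2, where it was called higher. Ndufa6, a protein of the LYR family that anchors an acyl carrier protein to the complex, was at 93.5, 97.0 and 94.7 FPKM in Ctrl and 110, 96.1 and 104 FPKM in cKO (0.12, SE 0.08, limma adjusted p = 0.557), with cKO replicate 2 inside the Ctrl range. Ndufa7 stood at 0.08, and Ndufa2, Ndufs6 and Ndufa9 at -0.08, -0.04 and -0.02.

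In the proximal membrane arm, next to the junction with the peripheral arm, 2 of 9 genes fell (22.2%, beside 9.43% of all genes), with a median of -0.11. The count was 0 without Ctrl replicate 3, beside 8.04% of all genes. It was 1 without Ctrl replicate 2, cKO replicate 2 or cKO replicate 3, beside 7.94%, 9.77% and 8.82%. Ndufa3, a small subunit with a single membrane helix, was at 106, 120 and 116 FPKM in Ctrl and at 102, 93.6 and 91.6 FPKM in cKO. All cKO libraries lay below all Ctrl libraries, by a gap of 3.23 FPKM that was smaller than 1 SD of either group, with means of 114 ± 7.46 and 95.9 ± 5.76 (SD, n = 3 each), a log2 fold change of -0.25 (SE 0.09, limma adjusted p = 0.264). Ndufc1, another small membrane subunit, was at 35.3, 34.5 and 41.0 FPKM in Ctrl and 32.0, 32.2 and 29.3 FPKM in cKO (-0.23, SE 0.09, limma adjusted p = 0.298). Again no library of one group reached the other. Ndufc2, which lies beside Ndufc1 in the complex, had the smallest p of the genes outside the threshold (-0.21, limma adjusted p = 0.342). Ndufa11, the lowest in level, was at 22, 20.4 and 23.6 FPKM in Ctrl and 19.6, 19.3 and 21.7 FPKM in cKO, with overlapping groups (-0.12). The other 5 genes ranged from -0.11 for Ndufs5 through -0.10 for Ndufa1 and -0.05 for Ndufa13 to 0.02 for Ndufa10 and Ndufa8.

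In the distal membrane arm, the end that holds the mitochondrially encoded proton pumps ND4 and ND5, 4 of 10 genes fell, beside 9.43% of all genes, and the median was -0.09. The count was 1 without Ctrl replicate 3 or without cKO replicate 1 (beside 8.04% and 7.25% of all genes). It was 0 with the cardiomyocyte marker covariate (beside 3.04%) and 1 with an erythroid covariate (beside 5.66%). After a correction for GC content and length it was 2 (beside 7.72%). Ndufb3, a small accessory subunit there, had the smallest p of all 35 genes and was at 60.5, 61.0 and 57.8 FPKM in Ctrl and 46.0, 46.1 and 51.0 FPKM in cKO. The cKO libraries all lay below the Ctrl libraries, with means of 59.8 ± 1.73 and 47.7 ± 2.84 (SD, n = 3 each), a log2 fold change of -0.32 (SE 0.08, limma adjusted p = 0.161). Ndufb6 was at 69.6, 74.0 and 82.4 FPKM in Ctrl and 59.3, 66.4 and 63.0 FPKM in cKO (-0.25, SE 0.09, limma adjusted p = 0.264). Ndufb5 was at 83.5, 81.4 and 95.3 FPKM in Ctrl and 63.7, 77.9 and 72.9 FPKM in cKO (-0.28, SE 0.10, limma adjusted p = 0.28). Both are accessory membrane subunits and both kept the groups apart, by gaps of 3.28 FPKM for Ndufb6 and 3.44 FPKM for Ndufb5 that were smaller than 1 SD of either group. Ndufb5 was at -0.09 with the cardiomyocyte marker covariate and at -0.17 with an erythroid covariate, and was called with neither.

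Ndufb8, whose protein is often blotted as a marker of assembled complex I, passed the test although its groups overlapped. It was at 198, 158 and 188 FPKM in Ctrl and 144, 141 and 163 FPKM in cKO (-0.27, SE 0.11, limma adjusted p = 0.313), so cKO replicate 3 lay above Ctrl replicate 2. With the cardiomyocyte marker covariate its fold change was 0.09. Ndufb9, an LYR protein that anchors the second acyl carrier protein, had the next highest level and was nearly equal in the groups (159 ± 6.49 and 156 ± 2.11 FPKM, SD, n = 3 each). The other 5 genes, none of them called, were at -0.10 for Ndufb7, -0.08 for Ndufb11 and Ndufb4, -0.01 for Ndufb2 and 0.03 for Ndufb10. Ndufab1, the acyl carrier protein itself, was at 45.2 ± 6.89 FPKM in Ctrl and 41.5 ± 3.76 FPKM in cKO (SD, n = 3 each), a log2 fold change of -0.11.

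Counted by arm, 6 of 19 membrane arm genes (31.6%, median -0.10) and 1 of 15 peripheral arm genes (6.67%, median -0.04) fell, beside 9.43% of all genes, and the difference between the arms was not tested. Without Ctrl replicate 3 the counts were 1 of 19 and 1 of 15, and without cKO replicate 1 they were 3 of 19 and 1 of 15. Summed over the 34 genes without Ndufs3, complex I subunits came to 2577, 2636 and 2808 FPKM in Ctrl and to 2498, 2462 and 2558 FPKM in cKO. The cKO sums all lay below the Ctrl sums, at 93.4%, 92.1% and 95.7% of the Ctrl mean, and the gap between cKO replicate 3 and Ctrl replicate 1 was smaller than 1 SD of either group. Ctrl replicate 3 was the highest of the 6 libraries for 21 of the 34 genes. In cKO replicates 1, 2 and 3, 17, 18 and 12 of the 34 genes (50%, 52.9% and 35.3%) lay below every Ctrl library, against 38.1%, 26.3% and 40.3% of all genes tested, and 3, 0 and 4 lay above every one, against 24.2%, 35% and 24.4% of all genes. Ctrl replicate 1 itself lay below both other Ctrl libraries for 18 of the 34 genes (52.9%, against 34.2% of all genes).

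Cardiomyocyte markers were also lower in every cKO library, though within each group the libraries were not in the same order as for complex I. The mean log2 level of cardiomyocyte markers, relative to the Ctrl mean, was 0.07, -0.12 and 0.05 in Ctrl and -0.50, -0.41 and -0.20 in cKO, a wider separation than that of the complex I genes (-0.05, -0.03 and 0.08 in Ctrl and -0.09, -0.11 and -0.06 in cKO). As a share of the summed FPKM without erythroid genes, the 34 genes were at 0.646%, 0.650% and 0.679% in Ctrl and 0.633%, 0.605% and 0.648% in cKO, so that cKO replicate 3 lay between Ctrl replicates 1 and 2. The lowest share was in cKO replicate 2, which had the lowest erythroid share of all libraries. The part of either cell type in the complex I values was not tested.

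**Figure D3:**
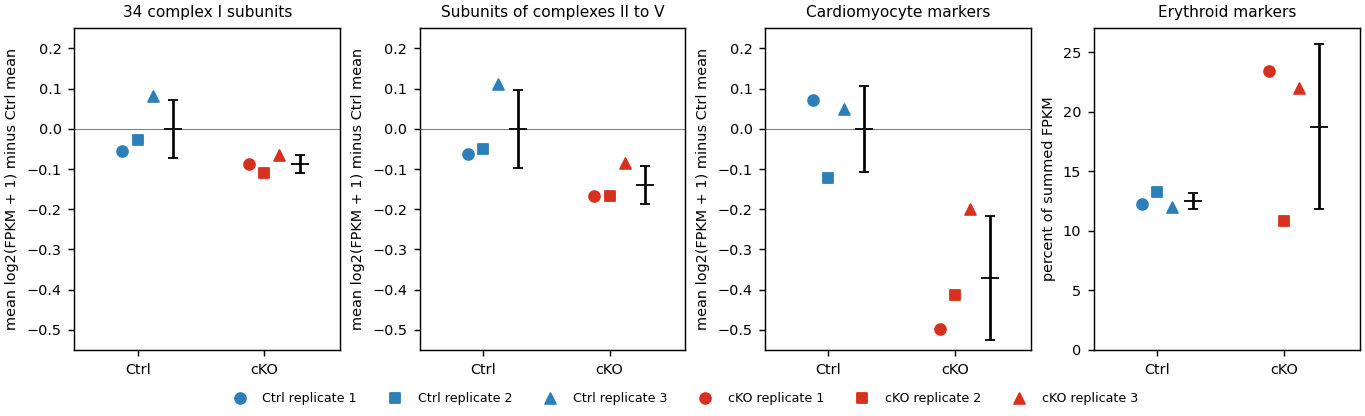
The first 3 panels show the mean log2(FPKM + 1) of a gene list in each library minus the Ctrl mean, for 34 complex I subunits, 43 nuclear subunits of complexes II to V and 10 cardiomyocyte markers; the last panel shows the percent of summed FPKM held by 10 erythroid markers. Symbols are libraries, and the bars are group means with SD (n = 3). The complex I means of cKO (-0.09, -0.11 and -0.06) lie below those of Ctrl by less than the cardiomyocyte markers do.

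Fold change moved with base composition across these genes. Over the 34 genes the fold change correlated with the GC content of the leading transcript row (Pearson r = 0.38, Spearman rho = 0.40), a description across genes that share the same 6 libraries. Over 12908 genes of the table the same coefficients were 0.21 and 0.24. The 7 genes that fell had a median GC content of 48.4% (44.1% to 55.3%), and the other 27 a median of 53.6% (42.0% to 60.7%). With a GC content and length correction in each library, also chosen after the data were seen, 3 genes (Ndufb3, Ndufa5 and Ndufb5) were still called lower (8.57%, against 7.72% of all genes).

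**Figure D4:**
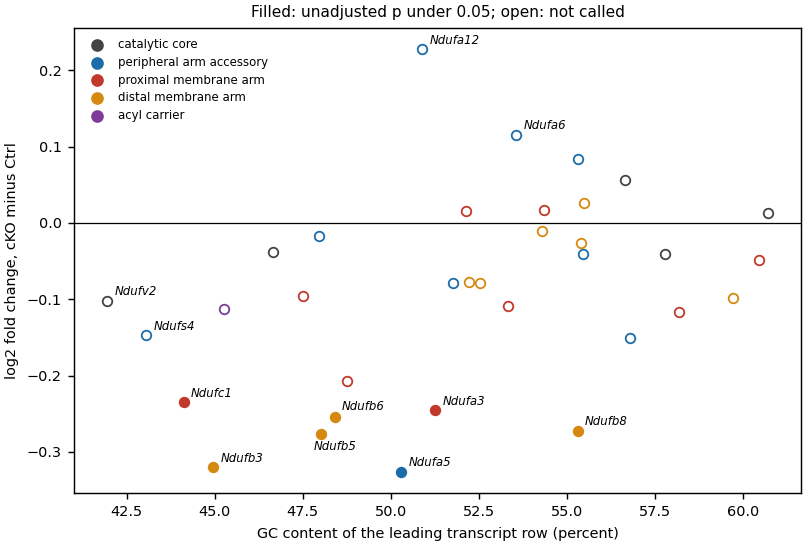
Log2 fold change (cKO minus Ctrl) of 34 complex I subunit genes against the GC content in percent of their leading transcript row; colours mark the place in the complex, and filled circles passed an unadjusted p of 0.05. Of the 7 filled circles, Ndufb8 alone lies above 53.6% GC, the median of the open circles.

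The table lists transcripts in separate rows, 76 of them for these 35 genes, and 27 genes had over 90% of their FPKM in 1 row. Of the 59 rows tested, 8 fell at an unadjusted p under 0.05, against 6.22% of all rows, none rose, against 4.02%, and the smallest adjusted p was 0.348. For the 7 genes that fell, the leading row was called lower too. The eighth row was a minor row of Ndufb2, a distal membrane arm subunit, at 9.78, 8.01 and 9.54 FPKM in Ctrl and 6.91, 7.10 and 7.96 FPKM in cKO (-0.28), while the leading row of the gene was at 17.6, 19.5 and 21.6 FPKM in Ctrl and 28.3, 16.2 and 19.9 FPKM in cKO. In the leading row cKO replicate 1 was the highest library and cKO replicate 2 the lowest, so the groups overlapped.

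Ndufs7 had a second row whose share varied from library to library within both groups. It held 1.31%, 20.1% and 1.5% of the gene in Ctrl and 28.9%, 2.05% and 31.8% in cKO. Both rows have the same coding length, 672 bases, and differ outside it, and the sum over rows varied less than either row. In Ndufv3 the leading row codes for a short form (coding length 312 bases) and held 80.6% to 82.9% of the gene, and a row with a coding length of 1404 bases held 15.6% to 18.6%. The long form was at 14.5, 14.5 and 16.9 FPKM in Ctrl and 15.3, 14.7 and 14.4 FPKM in cKO, and the balance of the forms overlapped between the groups. The leading row of Ndufa5 (coding length 348 bases) was at 74.4, 80.7 and 72.1 FPKM in Ctrl and 56.7, 57.5 and 64.7 FPKM in cKO. Its minor row (coding length 231 bases) was also lower in every cKO library, at 19.7, 21.3 and 20.7 FPKM in Ctrl and 18.5, 14.4 and 18.3 FPKM in cKO, without passing the test (-0.26, limma adjusted p = 0.498).

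**Figure D5:**
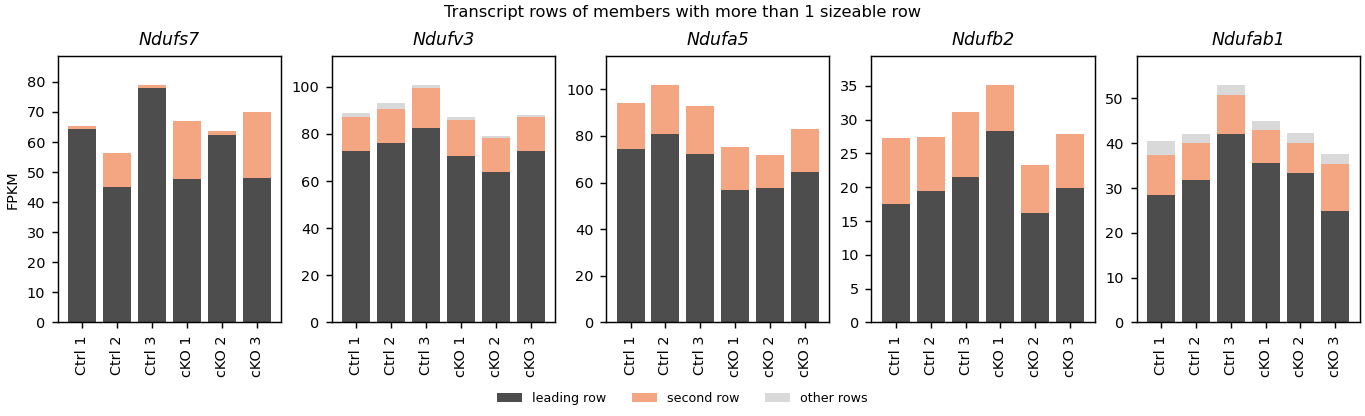
FPKM of the leading row (dark), the second row (orange) and all other rows (light grey) of the 5 complex I genes with at least 2 rows of 10% or more, in each library. The second row of Ndufs7 holds 20.1% to 31.8% in Ctrl 2, cKO 1 and cKO 3 and 1.31% to 2.05% in the others, while Ndufv3 keeps nearly the same proportions in all 6 libraries.

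The mitochondrially encoded partners of these subunits differed among themselves. Of the 7 mitochondrial complex I genes, 2 fell (28.6%, beside 9.43% of all genes), 5 had a lower mean (71.4%, beside 55.0%), and the median was -0.23. Summed over the 7, they came to 26298, 27692 and 26751 FPKM in Ctrl and 24786, 29734 and 18007 FPKM in cKO, so that cKO replicate 2 was the highest of all 6 libraries and cKO replicate 3 the lowest. mt-Nd4l was at 4061, 3219 and 3996 FPKM in Ctrl and 2198, 2520.2 and 1762 FPKM in cKO (-0.81, SE 0.18, limma adjusted p = 0.146). mt-Nd4 was at 3998, 3950.5 and 4137 FPKM in Ctrl and 2663, 3054 and 2405 FPKM in cKO (-0.58, SE 0.16, limma adjusted p = 0.170). These genes overlap on the mitochondrial genome and share a transcript, so their values are not independent, and both kept the groups apart. mt-Nd5, another proton pump subunit, was at 2516, 3128 and 2392 FPKM in Ctrl and 2085, 2407 and 1969 FPKM in cKO, and the groups overlapped (-0.31, limma adjusted p = 0.414).

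Among 16 assembly factors of complex I in the table, 14 had a lower mean (87.5%, beside 55.0% of all genes), 1 fell (6.25%, beside 9.43%) and the median was -0.09. Ndufaf5, an enzyme that hydroxylates Ndufs7, fell, from 13.1, 12.6 and 13.5 FPKM in Ctrl to 12.0, 10.6 and 10.8 FPKM in cKO (-0.21, SE 0.09, limma adjusted p = 0.298). Ndufaf3 was at 6.42, 6.08 and 7.20 FPKM in Ctrl and 5.36, 5.46 and 6.04 FPKM in cKO (-0.19, limma adjusted p = 0.408). Ecsit, which acts in assembly of the membrane arm, was at 12.8, 12.8 and 12.6 FPKM in Ctrl and 13.6, 14.5 and 14.1 FPKM in cKO (0.13, limma adjusted p = 0.458). It was the only one of the 16 with every cKO library above every Ctrl library (6.25%, against 7.74% of all genes). None of the other 13 was called.

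The nuclear subunits of the other respiratory complexes leaned the same way. Of 43 subunits of complexes II to V, 14 fell (32.6%, against 9.43% of all genes) and 1 rose (2.33%, against 5.57%), 35 had a lower mean (81.4%, against 55.0%), and the median was -0.12. The medians were -0.10 for 4 genes of complex II, -0.18 for 9 of complex III, -0.11 for 15 of complex IV and -0.13 for 15 of the ATP synthase. The complex I median of -0.08 was thus the nearest to that of all genes (-0.02) among the nuclear lists of the 5 complexes, and the differences between the lists were not tested.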

How the data were processed

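RNA of 6 pools of embryonic hearts was depleted of ribosomal RNA and made into strand-marked libraries. The authors deposited FPKM values per transcript row (60776 rows). The submitters' processing notes name Bowtie2 2.2.8, HISAT2, StringTie 1.3.1, Cuffdiff 2.1.1 and genome build mm9 without their roles, and no coordinates were converted from that build. FPKM values keep no counts, so absolute depth is unknown. From the lowest values, relative depths of 1, 1.15 and 1.40 (Ctrl) and 1.18, 1.38 and 1.62 (cKO) were estimated. Replicates are separate pools, and p-values measure the spread between them.

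Rows were summed per gene identifier (26191 genes), genes with at least 1 FPKM in at least 3 libraries were kept, and log2(FPKM + 1) was tested with limma 3.58.1 in R 4.3.3 (moderated variance with a trend, Benjamini-Hochberg adjustment over all genes). These fold changes understate those of low genes. A gene is called lower or higher, or said to have fallen or risen, at an unadjusted two-sided p under 0.05. Where genes are counted by a lower or higher mean, it is the mean of log2(FPKM + 1). The script was tested on simulated data. Genes whose values are given per library were those called without overlap, the 2 with the highest fold change, the core subunits, Ndufa3, Ndufv3 and the highest and lowest by mean, and, outside the list, Mrps5 and the 3 smallest p among assembly factors, mitochondrially encoded complex I genes and regulators; Ndufs4 and the overlapping gene Ndufb8 beyond its level were added after their values were seen. The members and lists were chosen with earlier results of these data known. The alternatives tried changed the pseudocount, filter, scaling, covariates, gene value, variance model and libraries. Same-numbered libraries deviated together with correlations of 0.217, 0.110 and 0.0901, above those of differently numbered ones (-0.171 to 0.0488). The same-numbered values were not all above 0.1, so libraries were not paired, and a fit with a replicate block is given below.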

Additional observations from a re-analysis of the deposited data

How the results depend on the processing

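Under none of the 21 alternatives did a complex I gene reach an adjusted p of 0.05. The median fold change of -0.08 moved to -0.16 when each library was rescaled to the same sum (the median of all genes was then -0.10). With the level of cardiomyocyte markers as a covariate, chosen after seeing the data, 2 genes were called lower (5.71%, against 3.04% of all genes). The median was 0.0039, against -0.03 over all genes. Ndufb8 was at 0.0902 and Ndufb5 at -0.0934. Ndufc1 was at -0.27, Ndufa5 at -0.26, Ndufb3 at -0.21 and Ndufb6 at -0.21, and none of these genes was called. Against 7 genes called lower, 3 were called with the erythroid level as a covariate (8.57%, against 5.66% of all genes, with a median of -0.10) and 3 after correction for GC content and length (8.57%, against 7.72%), also chosen after seeing the data, which called 1 gene higher (2.86%, against 7.15%) and left 5 genes lower (14.3%, against 10.6%) and 1 higher (2.86%, against 10.3%) without overlap. Against 8 genes lower without overlap, 14 were so after rescaling (40%, against 16.1% of all genes). Against 8 transcript rows called lower, 2 were called after centring on the median gene (3.39%, against 4.83% of all rows) and 4 without the variance trend (6.78%, against 6.5%). The cause of these changes was not tested.

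Leaving out each library in turn gave 2 to 7 genes called lower and 0 to 1 called higher. The 2 were Ndufb3 and Ndufa5, without Ctrl replicate 3 (5.71% against 8.04% of all genes). Without cKO replicate 1, 4 were called lower (11.4% against 7.25%). Without Ctrl replicate 2, 1 was called higher (2.86% against 4.76%). Genes lower without overlap numbered 8 to 15 (15 without cKO replicate 3, 42.9% against 17.6% of all genes). Genes higher without overlap numbered 0 to 4 (4 without Ctrl replicate 3, 11.4% against 12.1% of all genes). The medians were -0.09 to -0.04. From 2 to 7 transcript rows were called lower. They were 2 without Ctrl replicate 3 (3.39% against 5.12% of all rows) and 7 without Ctrl replicate 2 (11.9% against 4.73%). From 0 to 1 rows were called higher, beside 4.02% of all rows in the fit to all 6 libraries. A replicate block in the fit gave 7 genes called lower (20%, against 11.0% of all genes), 6 of which were also called without the block, while Ndufc1 was lost. Ndufb3 and Ndufa5 lost their call in 1 of 21 alternatives (the cardiomyocyte covariate), Ndufb5 in 5, Ndufa3 and Ndufb6 in 6, Ndufc1 in 7 and Ndufb8 in 11. Depth limits no statement on detection here, since the genes other than Ndufs3 were above 19 FPKM in every library.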

Other observations

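Of 11 tested regulators of respiratory genes, 9 had a lower mean in cKO (81.8%, against 55.0% of all genes), 3 fell (27.3%, against 9.43%) and none rose (against 5.57%), with a median of -0.12 on the log2 scale. Esrrg, an orphan nuclear receptor of oxidative tissues, was at 15.0, 13.7 and 14.8 FPKM in Ctrl and 9.66, 10.6 and 12.1 FPKM in cKO (-0.40, SE 0.10, limma adjusted p = 0.161). Ppargc1a, the coactivator PGC-1alpha, was at 16.1, 15.7 and 16 FPKM in Ctrl and 12.7, 13.1 and 12.9 FPKM in cKO (-0.29, SE 0.08, limma adjusted p = 0.168). Esrra, a receptor that PGC-1alpha coactivates, was at 13.4, 10.9 and 12.8 FPKM in Ctrl and 10.8, 9.94 and 10.1 FPKM in cKO (-0.24, SE 0.10, limma adjusted p = 0.313). All 3 kept the groups apart, Esrra by the narrow gap between cKO replicate 1 and Ctrl replicate 2. Of the 11, 4 including these had every cKO library below every Ctrl library, against 13.0% of all genes. Any relation between these levels and those of the complex I genes was not tested.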
